A study of Homo sapiens with 42 samples.

Results

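Chromatin loops at the genes of NFE2, the small MAF proteins and BACH1 were followed in K562, an established line of human chronic myeloid leukemia cells, during treatment with 25 nM PMA (phorbol 12-myristate 13-acetate), which drives the line toward megakaryocytes. Loops were taken from the authors' deposited list when either anchor started in a window around NFE2 (chr12:54150000-54550000), MAFF (chr22:38000000-38450000), MAFG (chr17:81700000-82150000), MAFK (chr7:1300000-1800000) or BACH1 (chr21:29000000-29800000), in hg38. Of the 33914 loops listed, 53 met this rule: 7 at NFE2, 5 at MAFF, 6 at MAFG, 15 at MAFK and 20 at BACH1. A loop here is a pair of 10 kb anchors on one chromosome, and its value is the number of in situ Hi-C read pairs that link them.

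The cells were harvested untreated (0 h) and after 6 h and 72 h of PMA, and the medium was renewed after 24 h and 48 h. All groups carry the label of wild-type K562, so every comparison is of a single line with itself at another time. Each time had 4 biological replicates, of which replicates 1 and 2 were made as 3 technical replicates and replicates 3 and 4 as 2 technical replicates sequenced in 2 runs. Nothing in the labels says that the replicates were separate cultures, so p-values measure the spread between these libraries, which may be technical. The difference between replicates 3 and 4 of 72 h was no larger than sampling noise gives, so they count as 1 sample in every mean ± SD, which leaves n = 3 at 72 h. The fits, their p-values and the statements on which libraries overlap keep them as 2 libraries. With the pair summed, 20 loops at 72 h were called in place of 21, 6 gained and 14 lost. Replicates 3 and 4 were also the closest pair at 0 h and at 6 h, though they differed by more than sampling noise. They count as separate samples there, so the 4 samples of those times may not be equally independent. Expression was not analysed here, so the differentiated state was not checked against marker genes.

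NFE2 is the large subunit of the factor NF-E2, a basic leucine zipper protein of the CNC family that acts in red cell precursors and megakaryocytes and is needed for platelet formation. It binds DNA only with a small MAF partner. MAFF, MAFG and MAFK are these partners: they have a basic leucine zipper but no activation domain, so a pair of small MAF proteins represses while a pair with NFE2 activates. BACH1 is another CNC protein that takes the same partners and the same kind of site, and it represses targets such as HMOX1 until heme removes it. Activator and repressor of this network therefore compete for shared partners and sites, which extend the AP-1 motif.

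The promoter windows used here include none for NFE2 or MAFK, so promoters of those genes were not examined. Of BACH1, MAFF and MAFG, BACH1 was the gene with promoters in loop anchors, and these fell in neighbouring anchors. The promoter windows below (250 bases before to 50 after the start, from RefSeq on GRCh38.p14, 5′ to 3′) are shown because the first lies in the anchor of loop32112, which lost contacts at 72 h, and the last in the next anchor up, which is shared by loop32105 and loop32108 and gained contacts. Capitals mark the motif found.
BACH1 promoter 1, chr21:29298672-29298971, plus strand: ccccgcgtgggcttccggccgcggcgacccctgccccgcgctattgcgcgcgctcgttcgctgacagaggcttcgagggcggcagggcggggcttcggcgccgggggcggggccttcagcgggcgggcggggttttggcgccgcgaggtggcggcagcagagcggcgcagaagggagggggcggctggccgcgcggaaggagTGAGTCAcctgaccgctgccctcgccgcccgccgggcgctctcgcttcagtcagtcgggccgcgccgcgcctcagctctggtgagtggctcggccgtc
BACH1 promoter 3, chr21:29304954-29305253, plus strand: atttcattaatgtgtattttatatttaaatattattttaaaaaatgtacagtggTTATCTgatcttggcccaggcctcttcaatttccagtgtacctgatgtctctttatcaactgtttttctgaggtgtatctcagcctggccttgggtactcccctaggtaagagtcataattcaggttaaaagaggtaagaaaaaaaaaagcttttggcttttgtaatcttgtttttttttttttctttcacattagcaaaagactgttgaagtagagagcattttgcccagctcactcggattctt
The first window holds an AP-1 motif (TGACTCA or TGAGTCA, which are each other's reverse complement) at position 203 and has a GC content of 77.7%. The last holds the GATA core AGATAA on the minus strand at position 55, printed as its reverse complement, and has a GC content of 34.3%. BACH1 promoter 2, chr21:29299125-29299424, lies in the same anchor as the first and holds none of the motifs searched. MAFF and MAFG have promoters in the table, but these lie between anchors. The MAFF window is shown because it holds the CNC small MAF element TGACNNNGC, on the minus strand at position 129.
MAFF promoter 1, chr22:38201744-38202043, plus strand: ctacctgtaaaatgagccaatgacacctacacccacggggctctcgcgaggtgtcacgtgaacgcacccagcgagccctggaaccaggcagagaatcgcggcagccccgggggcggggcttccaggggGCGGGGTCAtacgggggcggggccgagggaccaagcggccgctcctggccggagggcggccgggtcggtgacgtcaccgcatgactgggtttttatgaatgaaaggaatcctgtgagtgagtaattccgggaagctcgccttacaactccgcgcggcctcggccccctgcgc
Over all 35116 promoter windows, an AP-1 motif was found in 4.95%, the GATA core in 10.3% and the CNC small MAF element in 13.3%, on either strand. The full NF-E2 element, which contains an AP-1 motif, was found in 0.285% and the core of the CTCF motif in 0.353%, and neither in the 6 windows of BACH1, MAFF and MAFG. A CNC small MAF element can overlap an AP-1 motif. These are matches of letters, and no factor binding was measured.

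The 12 libraries held between 736929 and 1472197 contacts over all loops. Values are normalized counts: contacts scaled to 1e+06 contacts in tested loops of the library, after edgeR's TMM scaling, with the local background of each anchor pair still in them. Of the 53 loops, 52 had enough counts for a test. The exception, loop32080, joins the anchor of ATP5PF and GABPA to that of USP16 over 3290 kb and had 85 raw contacts in all libraries together. The loops ran from 30 kb to 3290 kb with a median of 220 kb, against 440 kb over the whole list. They used 70 different anchors, 43 of which served 1 loop each, so many loops share an anchor and are not independent of each other. In 28 loops both anchors started in the window. The gene itself touched an anchor in 8 loops, 1 at NFE2, 2 at MAFK and 5 at BACH1, while MAFF and MAFG lay inside loops or outside them but in no anchor.

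At 72 h, 21 of the 52 tested loops differed from 0 h (quasi-likelihood test of edgeR with p adjusted over all 24132 tested loops, threshold 0.05), of which 7 were gained and 14 lost. Over all tested loops 33.6% differed, 16.7% gained and 16.9% lost. The split by locus was 0 gained and 3 lost at NFE2, 0 and 0 at MAFF, 0 and 3 at MAFG, 2 and 5 at MAFK, and 5 and 3 at BACH1. The median log2 fold change was -0.35 at NFE2, -0.22 at MAFF, -0.30 at MAFG, -0.05 at MAFK and 0.09 at BACH1, against 0.01 over all tested loops. The number gained was 4 without 0 h replicate 1 or with DESeq2 and 2 within replicates 3 and 4, while the number lost stayed between 11 and 17 in all alternatives. The total was 17 within replicates 1 and 2 and 13 within replicates 3 and 4, which differ in their technical replicates and sequencing runs.

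At 6 h the loops of these genes had moved less: 7 of 52 differed from 0 h, 2 gained and 5 lost, where 6.41% of all tested loops differed, 2.34% gained and 4.07% lost. Both gained loops were at MAFK, and the lost loops were 2 at NFE2 and 1 each at MAFG, MAFK and BACH1. All 7 loops of the NFE2 window had a log2 fold change below 0 at 6 h, with a median of -0.27 against 0.01 over all tested loops, of which 48.3% were below 0. Within replicates 1 and 2 the count was 5, within replicates 3 and 4 it was 1, and DESeq2 called 3. From 6 h to 72 h the call was made for 13 loops, of which 3 were gained and 10 lost, against 20.5% of all tested loops (10.7% gained and 9.81% lost). That count was 8 without 6 h replicate 2, 8 without 72 h replicate 2, 7 within replicates 1 and 2, and 3 within replicates 3 and 4 or with DESeq2.

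**Figure D1:**
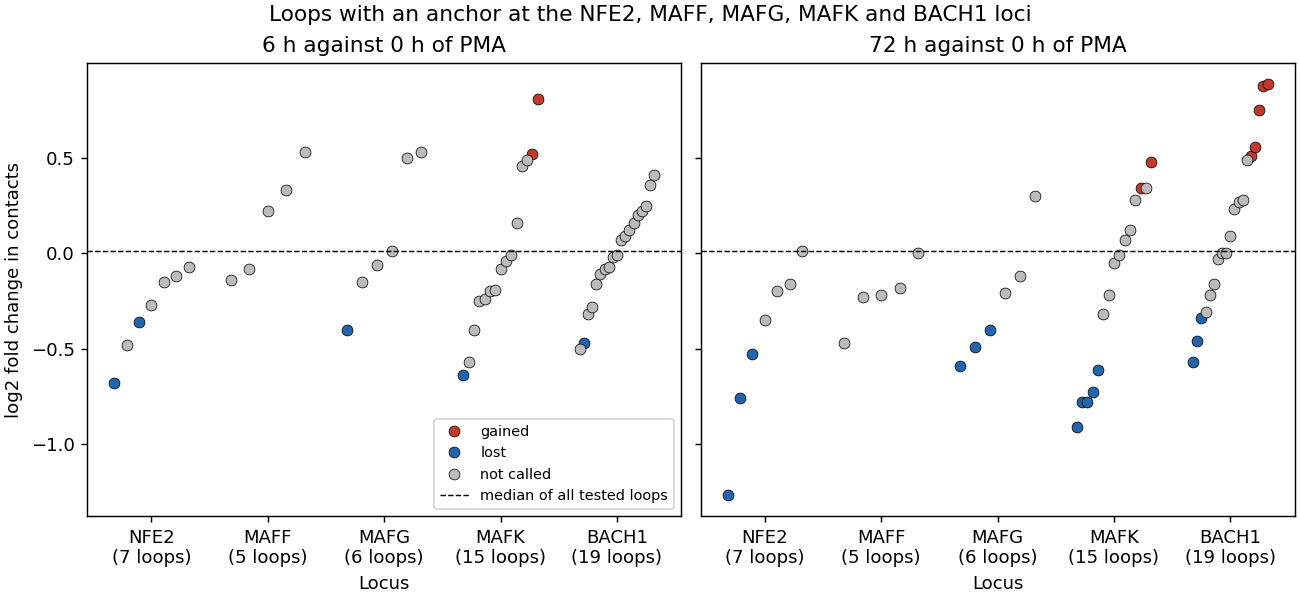
Log2 fold change of each tested loop (points) at 6 h and at 72 h against 0 h, by locus; red points were gained, blue lost and grey not called at an edgeR adjusted p under 0.05, and the dashed line is the median of all tested loops. At NFE2 the 3 loops called at 72 h were all lost, while at BACH1 5 were gained and 3 lost.

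At the NFE2 locus the 3 loops that changed by 72 h all weakened, and 2 of them span the gene. The locus also holds ZNF385A, a zinc finger protein known from blood cells, ITGA5, the alpha chain of the fibronectin receptor, and GPR84, a receptor for fatty acids on myeloid cells, all 3 with an end in an anchor. The largest fall of all 53 loops was that of loop23756, from HOXC10 (chr12:53990001-54000000) over NFE2 to the body of ZNF385A (chr12:54370001-54380000), 380 kb apart. Its normalized counts in replicates 1 to 4 were 59.4, 47.5, 50.2 and 75.0 at 0 h, 27.5, 40.2, 32.6 and 41.0 at 6 h, and 27.4, 13.1, 26.0 and 24.1 at 72 h. Every library at 6 h lay below every library at 0 h, and those at 72 h lay lower still, by a margin of 27.45 against 27.42 at the nearest point. The means were 58.0 ± 12 at 0 h (SD, n = 4), 35.3 ± 6.5 at 6 h (n = 4) and 21.8 ± 7.7 at 72 h (n = 3). Its fitted log2 fold change was -0.68 ± 0.16 (SE, adjusted p = 0.00251 by edgeR) at 6 h and -1.27 ± 0.17 (SE, adjusted p = 2.29e-10 by edgeR) at 72 h, with -1.33 in replicates 1 and 2 alone and -1.27 in replicates 3 and 4 alone at 72 h. At 6 h, DESeq2 and both pairs of replicates left the loop above the threshold, with adjusted p from 0.0598 to 0.0783.

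A pair of loops ends at the same anchor (chr12:54360001-54370000), which holds ends of GPR84 and ZNF385A. The shorter, loop23760, starts from the anchor with the lower-numbered end of NFE2 (chr12:54290001-54300000) and is the single loop of the list with NFE2 in an anchor. It read 204, 179, 164 and 179 at 0 h, 163, 159, 159.9 and 179 at 6 h, and 159, 161, 146 and 169.6 at 72 h. The 3 times overlapped, and the log2 fold change was -0.15 ± 0.10 (SE, adjusted p = 0.399 by edgeR) at 6 h and -0.20 ± 0.10 (SE, adjusted p = 0.0923 by edgeR) at 72 h, so that no change passed the threshold. At 72 h it passed in 1 alternative, with no filter on low counts, at -0.27 (adjusted p = 0.0307). The longer, loop23759, starts 70 kb further down, in an anchor with no gene in it (chr12:54220001-54230000), and passes over NFE2. It read 246, 189, 184 and 233 at 0 h, 179, 155, 174 and 208 at 6 h, and 129, 118, 119 and 139 at 72 h. All 72 h libraries lay below all libraries of 0 h and 6 h, and those of 0 h and 6 h overlapped. Its log2 fold change was -0.27 ± 0.10 (SE, adjusted p = 0.07 by edgeR) at 6 h, -0.76 ± 0.10 (SE, adjusted p = 1.59e-10 by edgeR) at 72 h and -0.49 ± 0.10 (SE, adjusted p = 0.000187 by edgeR) between 6 h and 72 h, with -0.83 in replicates 1 and 2 alone and -0.69 in replicates 3 and 4 alone at 72 h against 0 h. At 6 h its adjusted p passed the threshold without 0 h replicate 2 (0.0217), 0 h replicate 3 (0.0398) or 6 h replicate 4 (0.0223), and with the replicate number as a block (0.0292).

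Because these loops share an anchor, their ratio (counts plus 0.5) within a library does not depend on how that library was scaled. Ratios here and below use the same counts as the calls, so they describe the loops and are no separate support. The ratio of loop23759 to the NFE2 loop was 1.21, 1.06, 1.12 and 1.3 at 0 h, 1.1, 0.977, 1.09 and 1.16 at 6 h, and 0.812, 0.732, 0.815 and 0.822 at 72 h. At 72 h it was below every value of the other times, so the longer loop fell relative to the loop of NFE2. Among 46 such pairs of tested loops at the 5 loci, the ratio at 72 h did not overlap that at 0 h in 11, where 16.1% of 24517 pairs over the whole list did so; at 6 h it was 7 pairs, against 8.46%, and between 6 h and 72 h 8 pairs, against 13%.

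The highest mean count of the locus, which is not corrected for distance, was that of its shortest loop, loop23761, at 40 kb. This loop runs from the anchor with ends of ZNF385A and ITGA5 (chr12:54390001-54400000) to an anchor without genes (chr12:54430001-54440000). It read 274, 283, 257 and 265 at 0 h, 227, 183, 214 and 221 at 6 h, and 209, 191, 169 and 179 at 72 h. The libraries of 6 h and of 72 h were all below those of 0 h. The log2 fold change was -0.36 ± 0.09 (SE, adjusted p = 0.00531 by edgeR) at 6 h and -0.53 ± 0.09 (SE, adjusted p = 6.03e-07 by edgeR) at 72 h. With a correction for loop length the 6 h value was -0.21 (edgeR adjusted p = 0.117), and within replicates 3 and 4 it was -0.26 (adjusted p = 0.233). The longest loop of the window, loop23754 (420 kb, no gene in either anchor), read 32.6, 30.4, 43.9 and 37.5 at 0 h, 25.5, 26.2, 29.7 and 18.1 at 6 h, and 23.9, 27.1, 22.9 and 34.8 at 72 h. All its 6 h libraries lay below those of 0 h, with a log2 fold change of -0.48 ± 0.19 (SE, adjusted p = 0.103 by edgeR), not called. At 72 h the libraries overlapped with those of 0 h, and the value was -0.35 ± 0.18 (SE, adjusted p = 0.111 by edgeR). The 72 h value passed the threshold without 72 h replicate 4 (adjusted p = 0.0413). The other loops of the window, loop23757 from the anchor of HOXC9 and HOXC8 and loop23758, were named after their values were seen and had log2 fold changes of -0.16 and 0.01 at 72 h, neither called.

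**Figure D2:**
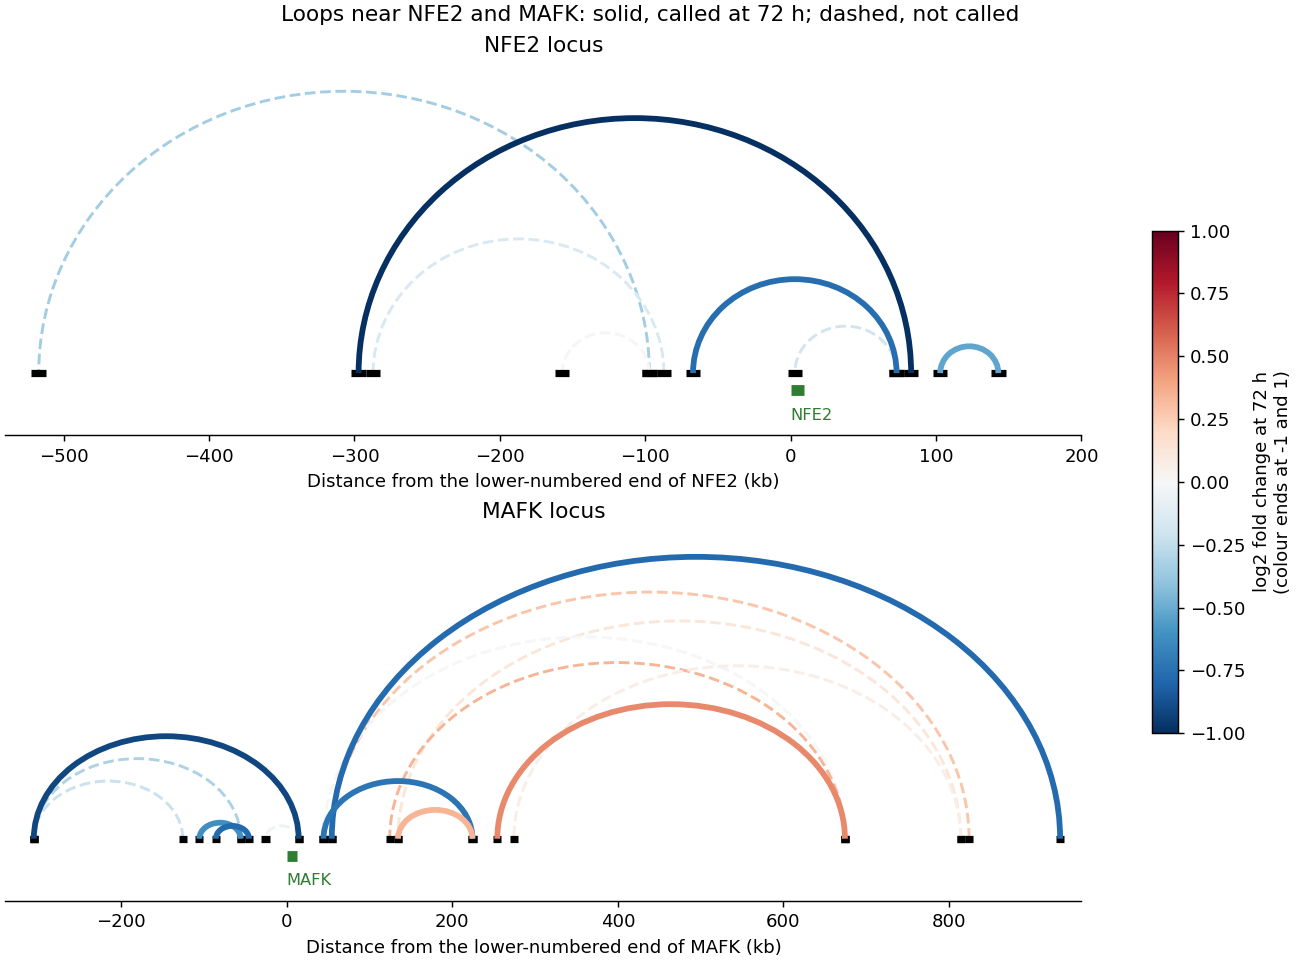
All 7 loops of the NFE2 window and all 15 of the MAFK window as arcs between their anchors (black blocks), against the distance in kb from the lower-numbered end of the gene (green). Colour is the log2 fold change at 72 h against 0 h, solid arcs were called and dashed arcs were not; the deepest blue arc over NFE2 is loop23756 at -1.27, and the loop that starts at NFE2 is pale and dashed.

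MAFF, a small MAF gene known to respond quickly to stress and growth signals, had no anchor of its own. By edgeR none of the 5 loops of its window was called against 0 h at 6 h or at 72 h. At each time 1 loop had an unadjusted edgeR p under 0.05. DESeq2 also called none. MAFF lies inside 3 of these loops, among them loop32552, with the highest mean, and loop32551, the longest at 520 kb. From the body of PICK1 to the body of the TPTEP2-CSNK1E readthrough gene (chr22:38060001-38070000 to chr22:38350001-38360000), loop32552 read 37.7, 34.2, 32.6 and 45.5 at 0 h, 39.2, 39.3, 18.4 and 33.8 at 6 h, and 23.9, 32.1, 33.3 and 42.0 at 72 h. The times overlapped, with a log2 fold change of -0.18 ± 0.17 (SE, adjusted p = 0.423 by edgeR) at 72 h. From the PICK1 end to the anchor with ends of DMC1, a recombinase of meiosis, and FAM227A (chr22:38570001-38580000), loop32551 read 31.1, 21.8, 20.1 and 28.4 at 0 h, 25.5, 23.4, 21.2 and 27.8 at 6 h, and 19.5, 21.1, 22.9 and 24.1 at 72 h. Its log2 fold change was -0.23 ± 0.19 (SE, adjusted p = 0.371 by edgeR) at 72 h, with overlapping libraries. Between 6 h and 72 h a pair of loops to the same DMC1 anchor was lost, and both were named after their values were seen. These were loop32554 from TMEM184B, at -0.70 ± 0.21 (SE, adjusted p = 0.0101 by edgeR), and loop32555 from TPTEP2-CSNK1E, at -0.75 ± 0.22 (SE, adjusted p = 0.00915 by edgeR). Without 72 h replicate 4 the former had an adjusted p of 0.0575, and the latter stayed called whichever library was left out, while DESeq2 called neither (0.0657 and 0.0684). Neither loop was called within replicates 1 and 2 or within replicates 3 and 4. Against 0 h, the log2 fold change of loop32554 was 0.22 at 6 h and -0.47 at 72 h. That of loop32555 was 0.53 at 6 h and -0.22 at 72 h, and none of these was called.

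MAFG, a small MAF gene whose loss impairs megakaryocytes in mice, likewise lay in no anchor, and the 3 loops of its window that changed by 72 h were all lost. The best counted was loop30093, 120 kb long, between the anchor of the non-coding LOC105371929 (chr17:81730001-81740000) and the body of P4HB, a protein disulfide isomerase (chr17:81850001-81860000). It read 138, 141, 147 and 108 at 0 h, 103, 105, 102 and 92.9 at 6 h, and 99.1, 118, 98.8 and 89.3 at 72 h. All libraries of 6 h and all but 1 of those at 72 h were below all those of 0 h. On the log2 scale the difference from 0 h was -0.40 ± 0.11 (SE, adjusted p = 0.0146 by edgeR) at 6 h and -0.40 ± 0.11 (SE, adjusted p = 0.00195 by edgeR) at 72 h. The 6 h call was lost without 0 h replicate 1 (adjusted p = 0.0565) or 0 h replicate 3 (0.0523), with DESeq2 (0.0937), and with the length correction (0.0515), and within replicates 1 and 2 (0.116) or 3 and 4 (0.239). The 72 h call was lost within replicates 1 and 2, at -0.37 (edgeR adjusted p = 0.0595).

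From the same first anchor, loop30094 reaches over MAFG to NOTUM, an enzyme that inactivates Wnt proteins (chr17:81950001-81960000), 220 kb away. Its counts were 62.3, 51.3, 60.2 and 59.1 at 0 h, 52.0, 62.6, 43.9 and 48.3 at 6 h, and 38.0, 42.2, 38.5 and 33.9 at 72 h. At 72 h every library was below every library of 0 h and 6 h. It fell to a log2 fold change of -0.59 ± 0.15 (SE, adjusted p = 0.000706 by edgeR) at 72 h, after -0.15 ± 0.14 (SE, adjusted p = 0.614 by edgeR) at 6 h, with -0.52 in replicates 1 and 2 alone and -0.69 in replicates 3 and 4 alone at 72 h. The third lost loop, loop30097, lies beyond MAFG, from the anchor of CENPX and LRRC45 (chr17:82020001-82030000) to the body of CCDC57 (chr17:82150001-82160000). It read 60.8, 63.6, 61.5 and 71.6 at 0 h, 64.7, 63.6, 48.1 and 66.4 at 6 h, and 55.7, 33.1, 40.6 and 49.1 at 72 h. The 72 h libraries lay below all those of 0 h, and the log2 fold change was -0.49 ± 0.14 (SE, adjusted p = 0.0039 by edgeR). Within replicates 1 and 2 it was -0.46 (edgeR adjusted p = 0.0728), not called. The longest loop of the window, loop30095, also passes over MAFG (420 kb) and read 17.4, 15.2, 16.3 and 17.1 at 0 h, 28.4, 26.2, 22.6 and 20.5 at 6 h, and 12.4, 8.03, 20.8 and 15.2 at 72 h. Its 4 libraries at 6 h lay above the 4 at 0 h, with a log2 fold change of 0.53 ± 0.22 (SE, adjusted p = 0.125 by edgeR) that did not pass the threshold, and -0.21 ± 0.23 (SE, adjusted p = 0.507 by edgeR) at 72 h.

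MAFK, the small MAF first found as the partner of NFE2 in red cell precursors, has its higher-numbered end in an anchor (chr7:1540001-1550000) that also holds an end of TMEM184A and serves 2 loops, and the longer of these was lost at 72 h. The shorter, loop15447, joins it over 40 kb to the anchor of INTS1 (chr7:1500001-1510000), a subunit of the Integrator complex. This loop had the highest mean count of the window. It read 146, 126, 144 and 150.1 at 0 h, 126, 128, 113 and 126 at 6 h, and 135, 146, 140.4 and 125 at 72 h. Libraries of 0 h and 72 h overlapped, with a log2 fold change of -0.19 ± 0.11 (SE, adjusted p = 0.291 by edgeR) at 6 h and -0.05 ± 0.10 (SE, adjusted p = 0.713 by edgeR) at 72 h. The longer, loop15444, reaches 320 kb down to an anchor without genes (chr7:1220001-1230000). It read 27.5, 35.1, 22.6 and 31.8 at 0 h, 22.6, 26.2, 19.8 and 29.0 at 6 h, and 16.8, 9.04, 14.6 and 17.9 at 72 h. All 72 h libraries were below all others, while those of 0 h and 6 h overlapped. Its log2 fold change was -0.24 ± 0.19 (SE, adjusted p = 0.506 by edgeR) at 6 h and -0.91 ± 0.21 (SE, adjusted p = 0.000198 by edgeR) at 72 h, with -1.14 in replicates 1 and 2 alone and -0.68 in replicates 3 and 4 alone, the last with an adjusted p of 0.0923.

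The ratio of loop15444 to loop15447 was 0.19, 0.281, 0.16 and 0.215 at 0 h, 0.183, 0.207, 0.18 and 0.234 at 6 h, and 0.127, 0.0653, 0.107 and 0.146 at 72 h. The 72 h values were again below all others. Contacts of MAFK with the distant anchor thus fell relative to those with INTS1. From the same distant anchor, loop15442 and loop15443 end short of MAFK, and both were named after their values were seen. Against 0 h their log2 fold changes at 72 h were -0.22 and -0.32, neither called. Between 6 h and 72 h loop15443 was lost, at -0.48 ± 0.16 (SE, adjusted p = 0.0194 by edgeR). That call was lost with DESeq2 (0.105), without 6 h replicate 1 (0.123) or 2 (0.052) or 72 h replicate 1 (0.0501) or 2 (0.114), and within replicates 3 and 4, where the value was -0.04 (0.941).

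Around INTS1 and PSMG3, a chaperone gene of proteasome assembly, 3 further loops were lost at 72 h. The first, loop15445, joins an anchor without genes to the lower-numbered end of INTS1 over 50 kb (chr7:1420001-1430000 to chr7:1470001-1480000) and fell early. It read 84.7, 104, 92.8 and 91.0 at 0 h, 57.9, 64.5, 45.3 and 63.9 at 6 h, and 63.7, 74.3, 46.8 and 55.3 at 72 h. Libraries of 6 h and 72 h all lay below those of 0 h, and overlapped each other. The log2 fold change was -0.64 ± 0.13 (SE, adjusted p = 0.000373 by edgeR) at 6 h and -0.61 ± 0.13 (SE, adjusted p = 4.58e-05 by edgeR) at 72 h, called in all 24 alternatives of each comparison. Beside it, loop15446 (40 kb, from the body of MICALL2 to the body of INTS1) read 73.2, 87.3, 55.2 and 62.5 at 0 h, 63.7, 66.4, 38.2 and 63.9 at 6 h, and 48.7, 42.2, 39.5 and 31.2 at 72 h. Its 72 h libraries were below all those of 0 h, and the log2 fold change was -0.25 ± 0.14 (SE, adjusted p = 0.307 by edgeR) at 6 h and -0.78 ± 0.14 (SE, adjusted p = 5.12e-06 by edgeR) at 72 h.

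On the other side of MAFK, loop15448 runs 180 kb from the anchor of PSMG3 (chr7:1570001-1580000) to an anchor without genes (chr7:1750001-1760000). It read 73.2, 66.5, 72.8 and 52.3 at 0 h, 51.0, 52.3, 48.1 and 48.3 at 6 h, and 41.6, 39.2, 35.4 and 41.1 at 72 h. Every library of 72 h was below every other, while those of 0 h and 6 h met at 52.3. Fitted against 0 h, the log2 fold change was -0.40 ± 0.14 (SE, adjusted p = 0.064 by edgeR) at 6 h, which passed without 0 h replicate 4 (adjusted p = 0.029), and -0.73 ± 0.14 (SE, adjusted p = 1.45e-05 by edgeR) at 72 h. The longest tested loop of the window, loop15451 (880 kb, chr7:1580001-1590000 to chr7:2460001-2470000), read 22.5, 25.6, 27.6 and 22.7 at 0 h, 19.6, 13.1, 14.2 and 15.7 at 6 h, and 14.2, 10.0, 17.7 and 11.6 at 72 h. Its 72 h libraries lay below those of 0 h, with a log2 fold change of -0.78 ± 0.22 (SE, adjusted p = 0.00254 by edgeR); within replicates 3 and 4 the adjusted p was 0.09.

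The gained loops of the window lie farther up, near ELFN1, a gene of a synaptic membrane protein. The first, loop15453, joins the ELFN1 anchor (chr7:1660001-1670000) to the same anchor that loop15448 uses, over 90 kb. It read 51.4, 54.1, 71.5 and 55.7 at 0 h, 87.3, 88.8, 76.4 and 76.0 at 6 h, and 73.4, 82.3, 52.0 and 81.2 at 72 h. All 6 h libraries lay above those of 0 h, whereas those of 72 h overlapped with 0 h. The log2 fold change was 0.52 ± 0.13 (SE, adjusted p = 0.00674 by edgeR) at 6 h and 0.34 ± 0.13 (SE, adjusted p = 0.0385 by edgeR) at 72 h. Within replicates 3 and 4 it was 0.26 (adjusted p = 0.598) at 6 h and 0.09 (0.771) at 72 h. The 6 h call was lost without 0 h replicate 1 (0.0709). The 72 h call was lost without 0 h replicate 1, 2 or 4, 6 h replicate 3 or 4, or 72 h replicate 1, 2 or 4, with adjusted p between 0.052 and 0.193, and held without the other 4 libraries.

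The second gained loop, loop15455, runs 420 kb from an anchor without genes to the body of MAD1L1, a spindle checkpoint gene (chr7:1780001-1790000 to chr7:2200001-2210000). It read 15.9, 23.7, 17.6 and 20.5 at 0 h, 35.3, 31.8, 34.0 and 41.0 at 6 h, and 24.8, 35.1, 29.1 and 22.3 at 72 h. The 6 h libraries lay above all those of 0 h, while 72 h and 0 h came as near as 22.3 and 23.7 and overlapped. Its log2 fold change was 0.81 ± 0.19 (SE, adjusted p = 0.00312 by edgeR) at 6 h and 0.48 ± 0.20 (SE, adjusted p = 0.0478 by edgeR) at 72 h. At 6 h the call was lost with DESeq2 (adjusted p = 0.0501) and within replicates 1 and 2 (0.105) or 3 and 4 (0.0857). The 72 h call held in 8 of 24 alternatives only. With 72 h replicates 3 and 4 summed its adjusted p was 0.057. It was also lost without 0 h replicate 1, 3 or 4, any 6 h replicate, or 72 h replicate 2 or 3, with adjusted p between 0.0522 and 0.22. The ratio of loop15448 to loop15453 at their shared anchor was 1.42, 1.23, 1.02 and 0.939 at 0 h, 0.587, 0.592, 0.633 and 0.638 at 6 h, and 0.569, 0.479, 0.683 and 0.508 at 72 h. At both 6 h and 72 h all values were below those of 0 h, so the share of PSMG3 at this anchor fell against that of ELFN1.

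At BACH1, the repressor of the network, contacts rose at 72 h between the first part of the gene and anchors in MAP3K7CL below it. Contacts from the anchor of the first base of BACH1 into its own body fell. The MAP3K7CL anchor of loop32105 also gained contacts with places outside BACH1. MAP3K7CL is a neighbouring gene named for its likeness to a kinase. The leading gain, loop32108, runs 140 kb from the body of MAP3K7CL (chr21:29160001-29170000) to the anchor with BACH1 promoter 3 (chr21:29300001-29310000). It read 45.6, 44.6, 57.7 and 55.7 at 0 h, 43.1, 57.9, 50.9 and 59.1 at 6 h, and 84.9, 73.3, 87.4 and 95.5 at 72 h. The 4 libraries of 72 h lay above all 8 others, and those of 0 h and 6 h overlapped. The means were 50.9 ± 6.8 at 0 h (SD, n = 4), 52.8 ± 7.4 at 6 h (n = 4) and 83.2 ± 9.2 at 72 h (n = 3). Its fitted log2 fold change was 0.07 ± 0.15 (SE, adjusted p = 0.838 by edgeR) at 6 h, 0.75 ± 0.13 (SE, adjusted p = 1.37e-06 by edgeR) at 72 h and 0.68 ± 0.13 (SE, adjusted p = 5.44e-05 by edgeR) between 6 h and 72 h, with 0.78 in replicates 1 and 2 alone and 0.67 in replicates 3 and 4 alone at 72 h against 0 h. It was called at 72 h in 24 of 24 alternatives.

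From another anchor in MAP3K7CL (chr21:29090001-29100000), 4 loops were gained at 72 h. The one that reaches the same BACH1 anchor, loop32105 over 210 kb, read 31.9, 37.0, 30.1 and 40.9 at 0 h, 43.1, 45.8, 34.0 and 37.4 at 6 h, and 51.3, 49.2, 51.0 and 50.9 at 72 h. All 72 h libraries were above all others, and the log2 fold change was 0.51 ± 0.15 (SE, adjusted p = 0.00509 by edgeR), after 0.22 ± 0.17 (SE, adjusted p = 0.49 by edgeR) at 6 h. Within replicates 1 and 2 and within 3 and 4 it was 0.52 and 0.48, neither called (adjusted p = 0.0581 and 0.109). Inside MAP3K7CL, loop32104 (60 kb, to chr21:29150001-29160000) read 59.4, 68.4, 66.5 and 88.7 at 0 h, 71.6, 60.7, 67.9 and 78.4 at 6 h, and 87.6, 116, 99.8 and 112 at 72 h. Those of 72 h except replicate 1 were above all 8 other libraries, with a log2 fold change of 0.56 ± 0.12 (SE, adjusted p = 9.44e-05 by edgeR) at 72 h and 0.56 ± 0.12 (SE, adjusted p = 0.000314 by edgeR) between 6 h and 72 h.

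The other 2 gained loops of this anchor pass over BACH1 and hold few contacts. The first, loop32106, ends in GRIK1, a kainate receptor gene (chr21:29650001-29660000), 560 kb away. It read 7.24, 16.1, 16.3 and 10.2 at 0 h, 12.8, 12.2, 12.7 and 19.3 at 6 h, and 31.0, 23.1, 12.5 and 26.8 at 72 h. Replicate 3 of 72 h lay among the 0 h libraries and the others above them. The log2 fold change was 0.88 ± 0.23 (SE, adjusted p = 0.00123 by edgeR) at 72 h, and 0.54 (adjusted p = 0.26) within replicates 3 and 4. At 1990 kb, loop32107 was the longest tested loop of the 5 loci and ended in an anchor without genes (chr21:31080001-31090000). It read 5.07, 6.65, 6.27 and 4.55 at 0 h, 5.88, 7.48, 5.66 and 12.1 at 6 h, and 14.2, 10.0, 15.6 and 8.93 at 72 h, the lowest counts among the loops called here. All 72 h libraries were above those of 0 h, and the log2 fold change was 0.89 ± 0.30 (SE, adjusted p = 0.0124 by edgeR). It was 0.46 (adjusted p = 0.247) with the length correction. The call was also lost without 0 h replicate 1 (0.0507) or 72 h replicate 3 (0.056), with DESeq2 (0.0605), and within replicates 1 and 2 (0.116) or 3 and 4 (0.145). Among the gained loops of this MAP3K7CL anchor, every ratio of counts overlapped between 72 h and 0 h. For loop32104 over loop32105 the medians were 2 (0 h), 1.82 (6 h) and 2.07 (72 h). The ratio of loop32105 to loop32108, the other loop of its BACH1 anchor, likewise overlapped between these times. For that pair the medians were 0.719 (0 h), 0.732 (6 h) and 0.596 (72 h). Overlapping ratios, some of them on few contacts, do not show that a rise is shared. Whether the rise of loop32105 was particular to either of its anchors was not tested.

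**Figure D3:**
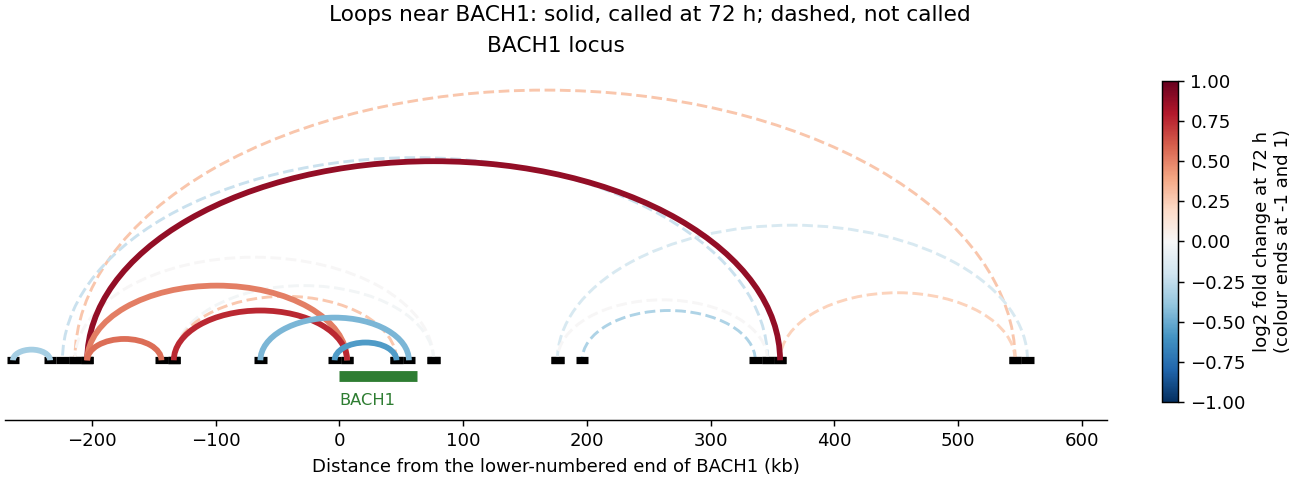
Loops near BACH1 as arcs between their anchors (black blocks), against the distance in kb from the lower-numbered end of BACH1 (green); 16 of the 20 loops of the window are drawn and the 4 that reach beyond the axis are not. Colour is the log2 fold change at 72 h against 0 h, solid arcs were called and dashed arcs were not; red arcs from MAP3K7CL end at the first part of BACH1, where a blue arc leads into the gene body.

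From the MAP3K7CL anchor of loop32108 (chr21:29160001-29170000), neither loop to points further along was called. The first, loop32109, reaches the body of BACH1 (chr21:29340001-29350000) and read 72.4, 72.2, 76.5 and 64.8 at 0 h, 82.4, 62.6, 93.4 and 71.2 at 6 h, and 89.4, 78.3, 89.4 and 90.2 at 72 h. Its 72 h libraries lay above those of 0 h and overlapped with those of 6 h, and the log2 fold change was 0.27 ± 0.12 (SE, adjusted p = 0.0686 by edgeR) at 72 h. It passed the threshold under 4 settings: scaling to total contacts gave 0.31 (adjusted p = 0.0354), the upper quartile 0.31 (0.0317), the length correction 0.30 (0.0454) and a minimum mean count of 20 gave 0.33 (0.0187). From the same anchor, loop32110 passes the whole gene to an anchor beyond it (chr21:29370001-29380000). It was named after its values were seen and read 128, 116, 120.4 and 110.3 at 0 h, 118, 114, 96.2 and 111 at 6 h, and 108, 119, 122 and 119.6 at 72 h. These values overlapped at all times, with a log2 fold change of -0.03 ± 0.11 (SE, adjusted p = 0.86 by edgeR) at 72 h.

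Against loop32110, the ratio of loop32108 was 0.36, 0.388, 0.482 and 0.508 at 0 h, 0.369, 0.51, 0.533 and 0.535 at 6 h, and 0.788, 0.62, 0.719 and 0.799 at 72 h. All 72 h ratios were above all others, so within a library the anchor in MAP3K7CL gained contacts with the first part of BACH1 relative to the far side of the gene. As loop32110 was picked after its values were seen, this ratio describes the pair and adds no support to the call.

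Within the gene the direction was the opposite. The anchor of the first base of BACH1 (chr21:29290001-29300000), with promoters 1 and 2, is joined over 50 kb to the gene body (chr21:29340001-29350000) by loop32112. It read 88.4, 94.0, 79.0 and 111 at 0 h, 66.7, 82.2, 84.9 and 62.7 at 6 h, and 61.9, 73.3, 40.6 and 71.4 at 72 h. The 72 h libraries lay below all those of 0 h. On the log2 scale the difference from 0 h was -0.32 ± 0.13 (SE, adjusted p = 0.108 by edgeR) at 6 h and -0.57 ± 0.13 (SE, adjusted p = 0.000171 by edgeR) at 72 h, with -0.44 in replicates 1 and 2 alone and -0.73 in replicates 3 and 4 alone at 72 h. Another loop into the body, loop32111, comes from an anchor without genes below BACH1 (chr21:29230001-29240000 to chr21:29350001-29360000). It read 80.4, 67.4, 94.1 and 66.0 at 0 h, 59.8, 69.2, 62.3 and 59.1 at 6 h, and 50.4, 50.2, 60.3 and 60.7 at 72 h. All its 72 h libraries were below those of 0 h, with a log2 fold change of -0.46 ± 0.13 (SE, adjusted p = 0.00365 by edgeR); within replicates 3 and 4 it was -0.38 (adjusted p = 0.126). The ratio of loop32109 to loop32112, which share the anchor in the body, was 0.82, 0.769, 0.969 and 0.584 at 0 h, 1.23, 0.763, 1.1 and 1.13 at 6 h, and 1.44, 1.07, 2.19 and 1.26 at 72 h. All 72 h values were above those of 0 h.

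Contacts that rose and contacts that fell thus met BACH1 in adjacent anchors of 10 kb, the first holding its first base and the next promoter 3. The plot of counts sets them beside the loops of NFE2 and MAFK.

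**Figure D4:**
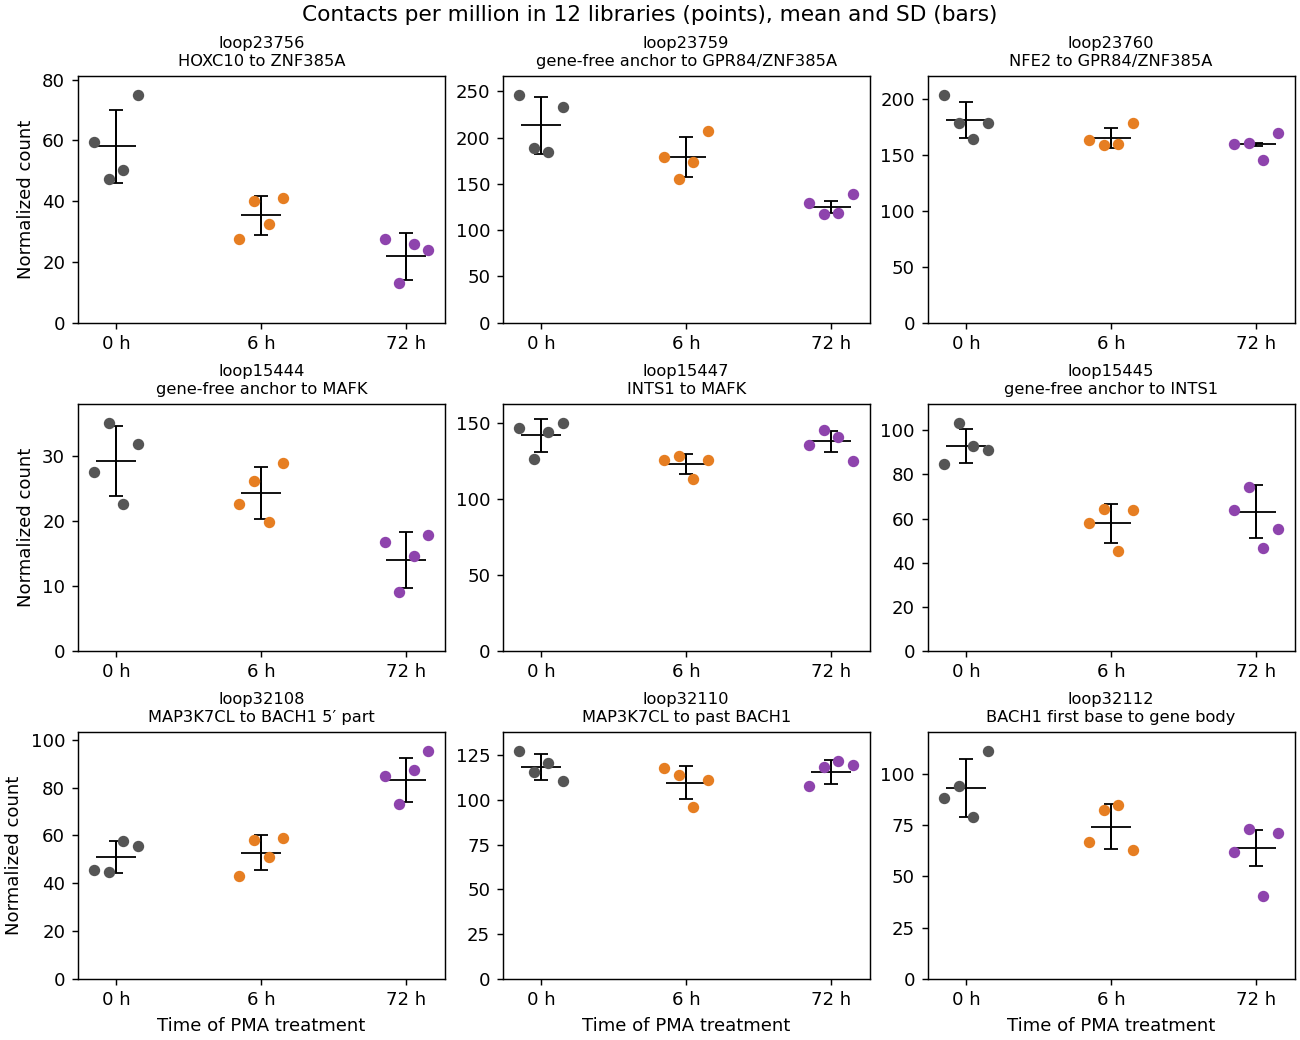
Normalized counts (contacts per 1e+06 contacts in tested loops, linear axis from 0) in the 4 libraries of each time (points) with the mean and SD (bars, n = 4, 4 and 3) for 3 loops each of the NFE2, MAFK and BACH1 loci. At 72 h, loop32108 lies between 73.3 and 95.5, above all libraries of 0 h and 6 h, while loop32110 from the same anchor overlaps at all times.

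The loop of the BACH1 window with the highest mean count, loop32099, lies at its lower edge. This loop spans 30 kb between the body of USP16, a histone deubiquitinase, and that of CCT8, a chaperonin subunit (chr21:29030001-29040000 to chr21:29060001-29070000). It read 192, 178, 169 and 154 at 0 h, 115, 117, 125 and 149.6 at 6 h, and 137, 146, 132 and 135 at 72 h. Libraries of 6 h and 72 h were all below those of 0 h. The log2 fold change was -0.47 ± 0.10 (SE, adjusted p = 0.00113 by edgeR) at 6 h and -0.34 ± 0.10 (SE, adjusted p = 0.00373 by edgeR) at 72 h. With the length correction these were -0.30 (adjusted p = 0.0536) and -0.12 (0.338), and within replicates 3 and 4 they were -0.22 (0.489) and -0.27 (0.127). The other 9 tested loops of the window, 5 of them between anchors beyond BACH1, were not called at 72 h.

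**Figure D5:**
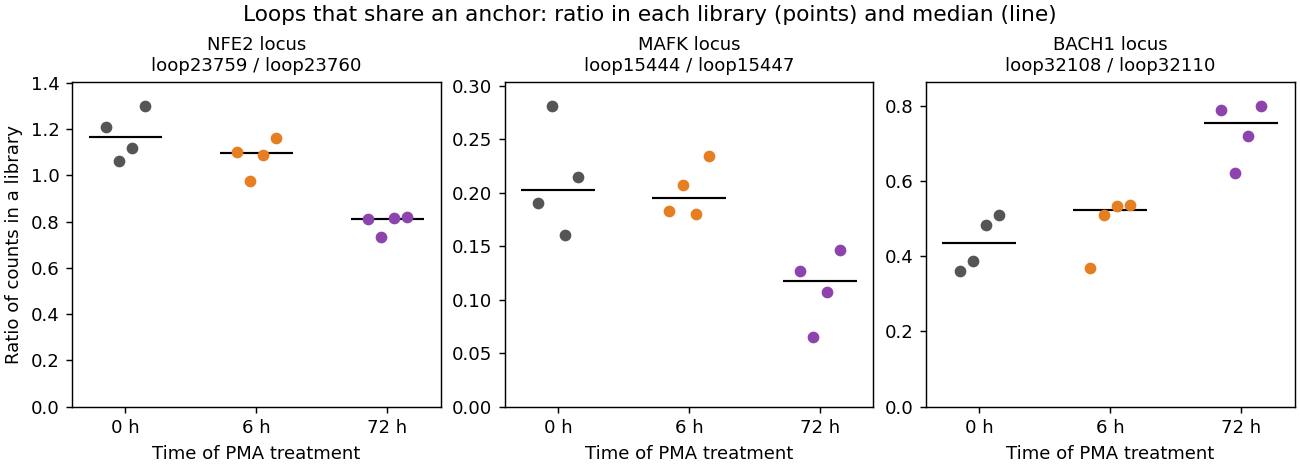
Ratio of the counts of 2 loops that share an anchor, in each library (points) with the median of each time (line); the axes are linear from 0. At NFE2 and MAFK the 72 h ratios lie below all others, with medians of 0.813 and 0.117, and at BACH1 above all others, with a median of 0.753. The ratios use the same counts as the calls.

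Summed over the loops of a locus, contacts at NFE2 were lower in all libraries of PMA than in those of 0 h. The sum was 967 ± 62 at 0 h (SD, n = 4), 811 ± 50 at 6 h (n = 4) and 725 ± 27 at 72 h (n = 3), a difference from 0 h of -16.2% at 6 h and -25.1% at 72 h. The MAFG sum was 318 ± 15 at 0 h (SD, n = 4), 290.4 ± 17 at 6 h (n = 4) and 246 ± 7.7 at 72 h (n = 3), a difference of -22.6% at 72 h with no overlap. The MAFK sum was 749 ± 22 at 0 h (SD, n = 4), 709 ± 52 at 6 h (n = 4) and 653 ± 29 at 72 h (n = 3), a difference of -12.8% at 72 h, again with no overlap. For MAFF it was 131 ± 12 at 0 h (SD, n = 4), 144 ± 14 at 6 h (n = 4) and 112 ± 12 at 72 h (n = 3), and the libraries of 0 h overlapped with those of both other times. For BACH1 it was 1133 ± 58 at 0 h (SD, n = 4), 1053 ± 39 at 6 h (n = 4) and 1156 ± 16 at 72 h (n = 3), 1.95% higher at 72 h with overlapping libraries, where 5 loops were gained and 3 lost. These sums describe chosen loops and were not tested. All 53 loops together took between 0.311% and 0.312% of a library's contacts at 0 h, 0.273% to 0.299% at 6 h and 0.267% to 0.284% at 72 h.

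Loop length moved with the direction of change over the whole list. Of all tested loops of 50 kb or less, 45.4% were lost at 72 h, and of the 6 such loops at these loci 5 were lost. Of those of 60 to 100 kb, 33.1% were lost and 13.8% gained over the list, while of 4 here 0 were lost and 2 gained. Of those of 110 to 200 kb, 24.9% were lost over the list, and 5 of 14 here. Above 400 kb and up to 800 kb, 16.7% were gained over the list and 2 of 13 here. With the length correction 19 loops were called at 72 h, 18 of them among the 21 of the fit without it, and at 6 h 5 were called, 4 of them among the 7.

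The authors' deposited table puts each loop in a class. Of the 53 loops, that table lists 1 as gained, loop32108, and 4 as lost, loop23756, loop23759, loop15446 and loop15448. It lists the other 48 as static. How the class was set is not given in the sources used here, and it is not the threshold of the calls above. Static loops include loop23761, loop15445, loop32104, loop32099 and loop30093. Their adjusted p in the authors' table was 0.00025, 0.0032, 0.0033, 0.0192 and 0.0486, from a test not named there. Of all loops, the authors' deposited table lists 2.95% as gained and 1.48% as lost. Its log2 values at 72 h were -1.22 for loop23756, -0.70 for loop23759, -0.65 for loop15446, -0.61 for loop15448 and 0.71 for loop32108, in the direction of the fit here in each case.

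Other genes of the network were examined from a list of 20, with 8 relatives and regulators of these factors and 12 of their known targets. An end of 9 of them lay in an anchor of at least 1 tested loop, which gave 19 loops, none of them among the 53. At 72 h, 4 of these were gained and 8 lost against 0 h, where 16.7% of all tested loops were gained and 16.9% lost. The median log2 fold change was -0.26 against 0.01 over all tested loops. At 6 h 1 was lost, where 4.07% of all were, with a median of -0.06 against 0.01. Between 6 h and 72 h 2 were gained and 4 lost, against 10.7% and 9.81% of all.

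Relatives and regulators with tested loops included MAF, BACH2 and KEAP1. The loop of MAF, a large MAF protein with an activation domain (loop29000, 1110 kb, chr16:78490001-78500000 to chr16:79600001-79610000), read 6.52, 8.54, 3.76 and 5.69 at 0 h, 5.88, 6.54, 4.25 and 6.03 at 6 h, and 10.6, 14.1, 15.6 and 17.0 at 72 h. Its 72 h libraries lay above all others, with a log2 fold change of 0.97 ± 0.28 (SE, adjusted p = 0.00426 by edgeR), on low counts. It was 0.66 (adjusted p = 0.0627) with the length correction and 0.60 (0.289) within replicates 1 and 2. The loop at BACH2, the lymphoid relative of BACH1, was loop14352 at -0.30 ± 0.12 (SE, adjusted p = 0.0367 by edgeR). That call held in 12 of 24 alternatives and was lost without 0 h replicate 1, 2 or 3 or 72 h replicate 2 or 4 (adjusted p from 0.0648 to 0.131).

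KEAP1, which holds the related factor NFE2L2 in the cytoplasm, had a 40 kb loop, loop30675 (chr19:10500001-10510000 to chr19:10540001-10550000). It read 229, 171, 247 and 239 at 0 h, 146, 155, 178 and 209.9 at 6 h, and 157, 176, 153 and 178 at 72 h. Of the 0 h libraries, 3 lay above all those of 6 h and 72 h, and replicate 2 lay among them. Fitted against 0 h, the log2 fold change was -0.36 ± 0.10 (SE, adjusted p = 0.0104 by edgeR) at 6 h, lost without 0 h replicate 3 (adjusted p = 0.0554) or 6 h replicate 1 (0.0914), and -0.41 ± 0.10 (SE, adjusted p = 0.000362 by edgeR) at 72 h. DESeq2 (0.101), the length correction (0.165) and either pair of replicates alone (0.0778 and 0.162) also left the 6 h value uncalled. The count of 1 loop at 6 h over the list was thus 0 without either library, and 2 without 6 h replicate 3 or 6 h replicate 4.

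Among the targets, 14 loops at NQO1, GCLC, TXNRD1, FTL and TBXAS1 were tested, with 1 gained and 6 lost at 72 h, against 16.7% and 16.9% of all tested loops. NQO1, a quinone reductase that BACH1 represses, had the largest fall of the list in loop28917 (310 kb, chr16:69390001-69400000 to chr16:69700001-69710000). It read 65.2, 66.5, 53.9 and 60.3 at 0 h, 43.1, 35.5, 56.6 and 54.3 at 6 h, and 32.7, 26.1, 33.3 and 37.5 at 72 h. All 72 h libraries were below those of 0 h, and the log2 fold change was -0.41 ± 0.15 (SE, adjusted p = 0.0654 by edgeR) at 6 h and -0.89 ± 0.15 (SE, adjusted p = 6.19e-07 by edgeR) at 72 h. The 6 h value was -0.73 (adjusted p = 0.021) within replicates 1 and 2 and -0.05 (0.952) within replicates 3 and 4. It passed without 6 h replicate 3 (0.0372) or 6 h replicate 4 (0.0423) and with the replicate block (0.0453). A term for replicates 3 and 4 against replicates 1 and 2 also let it pass (0.049). GCLC, the catalytic subunit of glutathione synthesis, had loops in both directions: loop13854 at -0.43 ± 0.13 (SE, adjusted p = 0.00637 by edgeR) and loop13856 at 0.45 ± 0.12 (SE, adjusted p = 0.00244 by edgeR), which share an anchor (chr6:53650001-53660000), while loop13855 was not called. TXNRD1, a thioredoxin reductase, had 1 of 4 loops lost, loop24440 at -0.43 ± 0.12 (SE, adjusted p = 0.00339 by edgeR). FTL, the ferritin light chain, had 1 of 2 lost, loop31085 at -0.37 ± 0.10 (SE, adjusted p = 0.00308 by edgeR). TBXAS1, a platelet enzyme that NF-E2 activates, had 2 of 4 lost, loop16909 at -0.42 ± 0.12 (SE, adjusted p = 0.00443 by edgeR) and loop16913 at -0.63 ± 0.25 (SE, adjusted p = 0.0368 by edgeR). The last held in 16 of 23 alternatives and was lost without 0 h replicate 1 or 2 or 72 h replicate 1 or 3 (adjusted p from 0.0618 to 0.187). Between 6 h and 72 h the count over the list was 3 in place of 6 without 6 h replicate 2, 72 h replicate 1 or 72 h replicate 3.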

How the data were processed

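In situ Hi-C contacts of K562 were analysed over 42 samples of 0 h, 6 h and 72 h. The submitters' processing notes name Juicer 1.5.6, DESeq2 and the build hg38; the loop caller is not given in the sources used here. Per the file headers, the authors deposited raw contact counts for 33914 loops in 30 columns, log2 fold changes, an adjusted p-value and a class per loop. Anchor positions deposited by the authors count from 0 and are given from 1.

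Technical replicates were summed into 12 libraries; column names of replicates 3 and 4 carry no sequencing run, and whether a column holds both runs was not given. The fit used edgeR 4.0.16 under R 4.3.3 on these counts (TMM scaling, filterByExpr with a minimum count of 10, quasi-likelihood test, prior count 2, Benjamini-Hochberg over 24132 tested loops, threshold 0.05), and 9782 loops were left untested. Standard errors come from the fold change and the F value, as its size over the square root of F. On simulated counts for 72 h against 0 h with 200 changed loops of 24132, 84.8% of 2-fold and 25% of 1.5-fold changes were called, with 9 false calls among 117. DESeq2 1.42.0, other scalings, filters, a loess offset on loop length (span 0.3) and leaving out each library were alternatives. So were fits within replicates 1 and 2 or within replicates 3 and 4. A further fit held a term for replicates 3 and 4 against 1 and 2, which the labels do not call a batch.

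The loops and gene lists were chosen with earlier results of these data known. Values of 1 gene of the network list are not reported here. Named with values are, at each locus, loops with the gene in an anchor, the loop with the highest mean, the longest tested loop, and up to 5 called loops of lowest adjusted p at 72 h and 3 at 6 h; 28 loops met this. Genes come from RefSeq (GRCh38.p14), placed at an anchor by either end: ends of protein-coding genes fell in 16.3% of 43806 anchors, against 12.2% to 13.0% after shifts of 50 or 100 kb. Replicates 3 and 4 of 72 h gave a chi-square per degree of freedom of 1.003 (p = 0.367). The same pair gave 1.018 at 0 h (chi-square p = 0.0253) and 1.023 at 6 h (chi-square p = 0.00621), the lowest value of each time.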

Additional observations from a re-analysis of the deposited data

Results flagged for a closer look

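Of 66 groups of 4 libraries examined, 5 had a library far from the other 3, where chance gives about 1 in 20 groups, or 3.3. At 6 h, replicate 3 was the low library for loop30097 (48.1, with the others from 63.6 to 66.4), loop15447 (113, others 125.5 to 128) and loop15446 (38.2, others 63.7 to 66.4). For loop32106, 6 h replicate 4 was high (19.3, others 12.2 to 12.8). The summed count of the BACH1 locus was high in 0 h replicate 3 (1221, others 1102 to 1109).

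For 13 loops, all described above, the change from 0 h differed between 6 h and 72 h by the test of 72 h against 6 h itself (edgeR, adjusted p under 0.05). For loop32554, loop32555 and loop15443, named after their values were seen, the values are given above. Of the other 10, loop23759 at -0.49, loop32104 at 0.56 and loop32108 at 0.68 kept their call under all alternatives run for them. The remaining 7 lost it under DESeq2 and within replicates 3 and 4. Within replicates 1 and 2 it was also lost for loop23756 (edgeR adjusted p = 0.0787), loop30094 (0.0913), loop30097 (0.0852), loop15444 (0.0676) and loop15446 (0.0816). All 7 also lost it with libraries left out, as follows. At NFE2, loop23756 fell by 0.59 on the log2 scale, and leaving out replicate 2 of 6 h (adjusted p = 0.0693), replicate 4 of 6 h (0.0622) or replicate 2 of 72 h (0.127) ended the call. At MAFG, loop30094 was at -0.45 (lost without 6 h replicate 2, 0.15, 72 h replicate 1, 0.0517, or 72 h replicate 4, 0.0793) and loop30095 at -0.74 (lost without 72 h replicate 2, 0.0664). Also at MAFG, loop30097 was at -0.43 and was lost without 6 h replicate 1, 2 or 4 or 72 h replicate 2 or 3 (0.0523 to 0.143). At MAFK, loop15444 was at -0.67 (lost without 6 h replicate 4, 0.0671, or 72 h replicate 2, 0.103) and loop15446 at -0.53 (lost without 72 h replicate 4, 0.0512). At BACH1, loop32106 was at 0.68 and was lost without 6 h replicate 1, 2 or 3 or 72 h replicate 1 or 4 (0.0523 to 0.145).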

How the results depend on the processing

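No loop described above changed direction while called under any alternative run. Of the results for single loops, 961 kept their side of the threshold with a library left out, 42 fell below it and 5 rose above it; under the other alternatives it was 1003, 68 and 7. For the count of loops changed at the 5 loci, 7 at 6 h became 3 with DESeq2 and 1 within replicates 3 and 4, and 5 to 8 with a library left out. The 21 at 72 h became 13 within replicates 3 and 4, and 19 to 22 with a library left out. The 13 between 6 h and 72 h became 3 with DESeq2, 7 within replicates 1 and 2, 3 within replicates 3 and 4, 6 at an adjusted p under 0.01, 8 with both anchors required in the window, and 8 to 13 with a library left out. Over all tested loops the share called went from 6.41%, 33.6% and 20.5% in the 3 comparisons to 1.41%, 20.6% and 8.2% with DESeq2, 2.09%, 19.7% and 9.53% within replicates 1 and 2, and 0.916%, 17.1% and 7.27% within replicates 3 and 4. At 6 h it was 4.15% with the length correction and 2.86% to 6.31% with a library left out. For the 20 network genes, 1 loop at 6 h became 0 with DESeq2, within replicates 3 and 4, with the length correction and at 0.01. It became 2 with the replicate block or the term for replicates 3 and 4, and 0 to 2 with a library left out. Their 12 at 72 h became 5 within either pair of replicates, and their 6 between 6 h and 72 h became 1 with DESeq2, 2 within replicates 1 and 2, 3 within replicates 3 and 4, 1 at 0.01 and 3 to 6 with a library left out. The log2 ratio of the MAFF sums was 0.29 at 6 h against 0 h within replicates 1 and 2 and -0.01 within replicates 3 and 4; between 6 h and 72 h it was -0.50 and -0.20, and -0.15 with both anchors in the window. That of MAFK with both anchors in the window was -0.21 at 6 h and -0.30 at 72 h. The cause of these shifts was not tested, beyond the fewer libraries, loops or stricter threshold that some settings use.

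Replicate numbers were tried as a block. Deviations of same-numbered libraries correlated at 0.015 to 0.124 across loops, 1 of 12 pairs above 0.1, against -0.074 to 0.044 for libraries of other numbers. These correlations were weak, but all were above 0, and 10 of 12 libraries correlated best with their own number. The main fit nevertheless did not pair samples by number. With the replicate block, 8, 21 and 13 loops were called in the 3 comparisons, including all 7, 21 and 13 called without it. Tested loops had a median mean count of 29.25, which limits what small changes can be seen. The simulation cannot size this limit, because it changed 200 of 24132 loops, whereas 33.6% of tested loops were called at 72 h. A threshold adjusted over so few changed loops is stricter, so its share of 1.5-fold changes called is not that of the fit here.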
